A study of Mus musculus with 10 samples.

Results

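The genes described here are 6 genes of early erythroid commitment, chosen by name with earlier results of these data known: the carbonic anhydrases Car1 and Car2, the red-cell pyruvate kinase Pklr, the transferrin receptor Tfrc, and the surface proteins Cd24a and Cd59a. All 6 were found among the 23240 genes of the expression table, and all 6 were among the 10905 genes that reached 1 RPKM in 2 or more libraries. RPKM is the number of reads in a gene, scaled by the length of the gene and by the read total of the library.

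RNA was sequenced from progenitors of mouse bone marrow in 5 groups of 2 libraries each. XMP, Runx1-deleted GMP and Runx1-deleted MEP came from mice of genotype Runx1Δ/Δ, in which both floxed Runx1 alleles met the vav-Cre transgene. Wild-type GMP and wild-type MEP came from Runx1wt/wt mice that carried the same vav-Cre transgene, so all 5 groups share the Cre. The vav regulatory elements drive Cre throughout the blood system, so the deletion is not limited to the cells that were sorted. All gates were lin- sca- kit+ CD41- CD105-. XMP were CD16/32+ CD150+ and were taken from Runx1Δ/Δ marrow only, GMP (granulocyte-macrophage progenitors) were CD16/32+ CD150-, and MEP (megakaryocyte-erythroid progenitors) were CD16/32- CD150+. The age and sex of the mice, and the number of animals behind a library, are not stated in the labels. Nothing says that the 2 libraries of a group came from separate mice, so the p-values below measure only the spread between these libraries.

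A progenitor that commits to the red-cell lineage takes up transferrin-bound iron for haem through the transferrin receptor, and builds up carbonic anhydrase, which interconverts carbon dioxide and bicarbonate. Its glycolysis comes to end in the red-cell form of pyruvate kinase, and its membrane gains proteins such as CD24 and the complement inhibitor CD59. In the usual map of mouse progenitors the cells furthest along this path before visible erythroblasts carry CD105, and all gates here excluded CD105+ cells. RUNX1 is a DNA-binding factor needed for the first blood stem cells and, in the adult, for platelet and lymphocyte formation.

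Promoter windows of 300 bases were listed by RefSeq (assembly GRCm38.p6) for 3 of the 6 genes, Pklr, Tfrc and Cd59a. They are shown for Pklr and Cd59a because these windows hold the short motifs searched for, while both Tfrc windows and the downstream one of the pair listed for Pklr hold none of them. The motifs were AGATAA and TGATAA for GATA factors, TGTGGT for RUNX factors and CCACACC for erythroid Kruppel-like factors, on either strand. The 250 bases before each start follow 5′ to 3′ on the plus strand, with the matches in capitals, for Pklr at chr3:89135892-89136141 and for Cd59a at chr2:104095551-104095800.
Pklr: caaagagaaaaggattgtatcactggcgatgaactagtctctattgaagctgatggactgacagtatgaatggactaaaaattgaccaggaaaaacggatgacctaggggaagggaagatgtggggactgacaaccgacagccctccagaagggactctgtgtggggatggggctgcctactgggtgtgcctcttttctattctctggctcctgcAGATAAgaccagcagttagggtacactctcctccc
Cd59a: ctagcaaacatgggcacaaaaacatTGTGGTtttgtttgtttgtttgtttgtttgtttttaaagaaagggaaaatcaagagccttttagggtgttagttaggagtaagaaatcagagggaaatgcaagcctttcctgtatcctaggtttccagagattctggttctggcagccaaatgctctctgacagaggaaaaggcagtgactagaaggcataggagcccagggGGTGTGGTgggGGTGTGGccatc
With positions counted from the start, Pklr holds AGATAA at -35, and TGTGGT just past the start, outside the bases shown. Cd59a holds TGTGGT at -225 and -21, and CCACACC, read as GGTGTGG on this strand, at -23 and -12. The TGTGGT nearer the start overlaps the first GGTGTGG. Of 32841 RefSeq windows of the same length, 16.8% hold TGTGGT, 11.2% AGATAA, 9.05% TGATAA and 7.58% CCACACC, so each match is a common one and describes the letters alone.

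The read totals behind the RPKM values, worked back from the table, were 20.8 to 54.9 M per library. Runx1 itself was listed at 85.9 and 78.5 RPKM in XMP, 63.0 and 72.3 in Runx1-deleted GMP, 41.5 and 36.8 in Runx1-deleted MEP, 28.5 and 26.8 in wild-type GMP, and 17.2 and 25.5 in wild-type MEP. A level over the whole gene does not check the loss of an exon. Marker lists set the gates apart: 8 neutrophil and monocyte genes summed to 7870 and 8170 RPKM in Runx1-deleted GMP and 12600 and 12500 in wild-type GMP, against at most 177 in any library of XMP or MEP. The 8 megakaryocyte and platelet genes summed to 1440 and 1150 RPKM in XMP and 562 to 841 in the MEP libraries. B-cell, T-cell and NK-cell lists summed to at most 27.8 RPKM in any library, and no marker of any list was at 0 in both libraries of a group. The 6 mast cell and basophil genes summed to 109 to 693 RPKM and the 8 genes of stem and multipotent cells to 81.2 to 326 RPKM over all libraries. Long genes were low relative to short ones in some libraries. Set as the longest minus the shortest genes, by their median deviation on the log2 scale, this trend was -0.87 in wild-type MEP replicate 1. That library was sequenced in lane 3, as was wild-type GMP replicate 1, where the trend was -0.28. In GMP the trend was -0.28 and -0.34 in wild-type libraries and 0.27 and 0.19 in Runx1-deleted libraries. It was between 0 and 0.46 in the remaining libraries. In GMP the genotypes were sequenced in different lanes, so lane and genotype cannot be told apart there.

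Fold changes below are log2 ± SE on the log2(RPKM + 1) scale, where the changes of genes at low levels come out smaller than they are. They come from limma fitted over all 10905 genes and all 10 libraries, and a change was called at a Benjamini-Hochberg adjusted p under 0.05. In RNA of sorted cells, fewer cells of a type and less RNA per cell cannot be told apart. Comparisons that share a group share its libraries and are not independent of each other.

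Without Runx1 the 6 genes did not move as one. In MEP, Cd24a, Cd59a and Tfrc rose to about 3 to 4 times their wild-type mean, while the wild-type mean of Car1 was 2.45 times its Runx1-deleted mean, a difference that missed the threshold. In GMP, Car1 and Cd24a fell and Cd59a rose. In MEP 3 of the 6 genes were called higher and 0 lower, where 3.97% and 4.03% of all genes tested were called in those directions. In GMP 1 was called higher and 2 lower, against 3.15% and 2.07% of all genes. At an unadjusted p under 0.05, 4 genes were higher and 1 lower in MEP, and 1 higher and 2 lower in GMP. The MEP count was 2 higher without wild-type MEP replicate 1 or either Runx1-deleted MEP library, and the GMP counts were 0 and 0 without wild-type GMP replicate 2 or Runx1-deleted GMP replicate 1. The median fold change of the 6 genes was 1.6 in MEP and -0.04 in GMP, and that of all genes tested was 0.03 and 0.05.

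**Figure D1:**
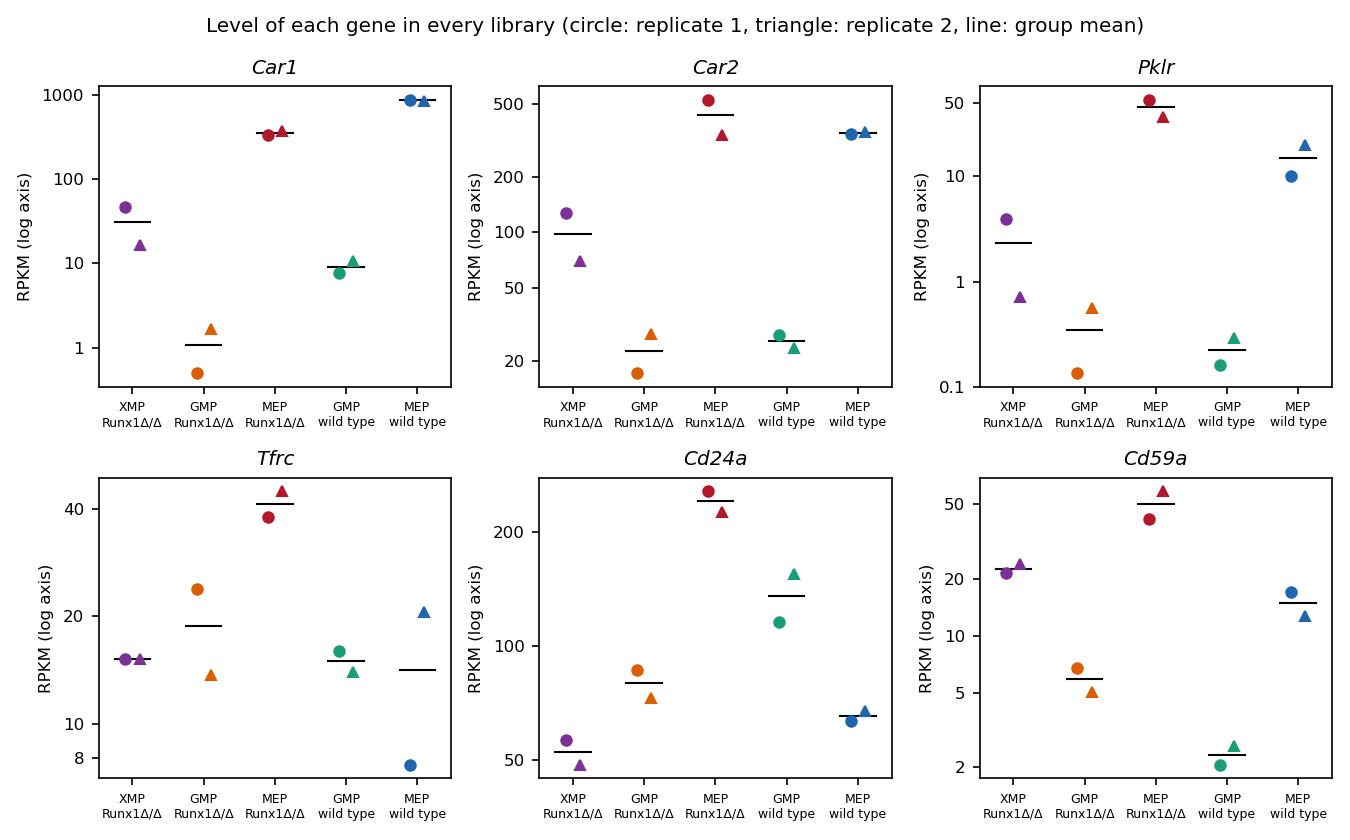
Level of each of the 6 genes in every library, in RPKM on log axes; circles are replicate 1, triangles replicate 2 and lines the mean of the 2 libraries. Car1 spans the widest range, Runx1-deleted MEP is the highest group for all genes but Car1, and Tfrc and Cd24a do not have the low GMP level of the other 4 genes.

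Car1 encodes carbonic anhydrase 1, one of the most abundant red-cell proteins. Its level was 46.2 and 16.3 RPKM in XMP, 0.496 and 1.67 in Runx1-deleted GMP, 334 and 375 in Runx1-deleted MEP, 7.62 and 10.6 in wild-type GMP, and 878 and 857 in wild-type MEP. No library of any group overlapped those of the next group, in the order Runx1-deleted GMP, wild-type GMP, XMP, Runx1-deleted MEP, wild-type MEP. From the lowest to the highest group the means spanned 802-fold. The Runx1-deleted GMP values rest on 34 and 96 reads and the wild-type GMP values on 379 and 275.

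All Runx1-deleted libraries had less Car1 than the wild-type libraries of their gate, a change called in GMP and not in MEP. In GMP it fell by 2.32 ± 0.40 on the log2 scale (limma, adjusted p = 0.00559), with means of 1.08 ± 0.828 RPKM in Runx1-deleted and 9.09 ± 2.08 RPKM in wild-type libraries (SD, n = 2 each). That call was lost without replicate 2 of wild-type GMP (limma, adjusted p = 0.113) and without replicate 1 of Runx1-deleted GMP (0.0708). In MEP the difference was -1.29 ± 0.40 with means of 354 ± 29.3 RPKM in Runx1-deleted and 867 ± 14.9 RPKM in wild-type libraries, and it missed the threshold (limma, adjusted p = 0.0793). Without either XMP library, which enters the fit only through the shared spread, it passed (limma, adjusted p = 0.0138 both times). The effects in GMP and in MEP differed by -1.03 ± 0.57, short of the threshold (limma, adjusted p = 0.67).

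Car2 encodes carbonic anhydrase 2, a faster enzyme that many other cell types also make. It was at 127 and 69.6 RPKM in XMP, 17.1 and 28 in Runx1-deleted GMP, 529 and 340 in Runx1-deleted MEP, 27.5 and 23.5 in wild-type GMP, and 342 and 353 in wild-type MEP. The genotypes overlapped in both gates, and XMP lay between GMP and MEP. Neither genotype comparison was called, with -0.21 ± 0.31 in GMP (limma, adjusted p = 0.72) and 0.29 ± 0.31 in MEP (limma, adjusted p = 0.62). The sign turned to 0.13 in GMP without Runx1-deleted GMP replicate 1 and to -0.03 in MEP without Runx1-deleted MEP replicate 1.

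Both carbonic anhydrases can be set against each other within a library. Per length, Car1 was 0.63 and 1.1 times the level of Car2 in Runx1-deleted MEP, against 2.57 and 2.43 times in wild-type MEP. In GMP the ratio was 0.029 and 0.0595 in Runx1-deleted libraries and 0.277 and 0.449 in wild-type libraries, and in XMP it was 0.363 and 0.233. In both gates the ratios of the genotypes did not overlap, with Runx1-deleted libraries lower.

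Car1 and Car2 are neighbours in the genome. On chromosome 3 the protein-coding genes follow each other in RefSeq in the order Car13, Car1, Car3, Car2. Car3, a carbonic anhydrase known best from muscle and fat, was low in all groups and fell in both gates. It was at 0.455 and 0.464 RPKM in Runx1-deleted MEP and 4.22 and 2.72 in wild-type MEP (log2 -1.6 ± 0.18, limma, adjusted p = 0.000299). In GMP it was at 0.881 and 0.978 RPKM in Runx1-deleted and 3.59 and 3.29 in wild-type libraries (log2 -1.2 ± 0.18, limma, adjusted p = 0.00224). Both calls were kept in every alternative in which Car3 was tested. Car13 had -0.4 ± 0.19 in MEP and -0.45 ± 0.19 in GMP, both not called (limma, adjusted p = 0.241 and 0.189). Of the 14 other carbonic anhydrases 3 passed the filter on low values, Car3, Car9 and Car13, and in the genotype comparisons Car3 was the one called.

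**Figure D2:**
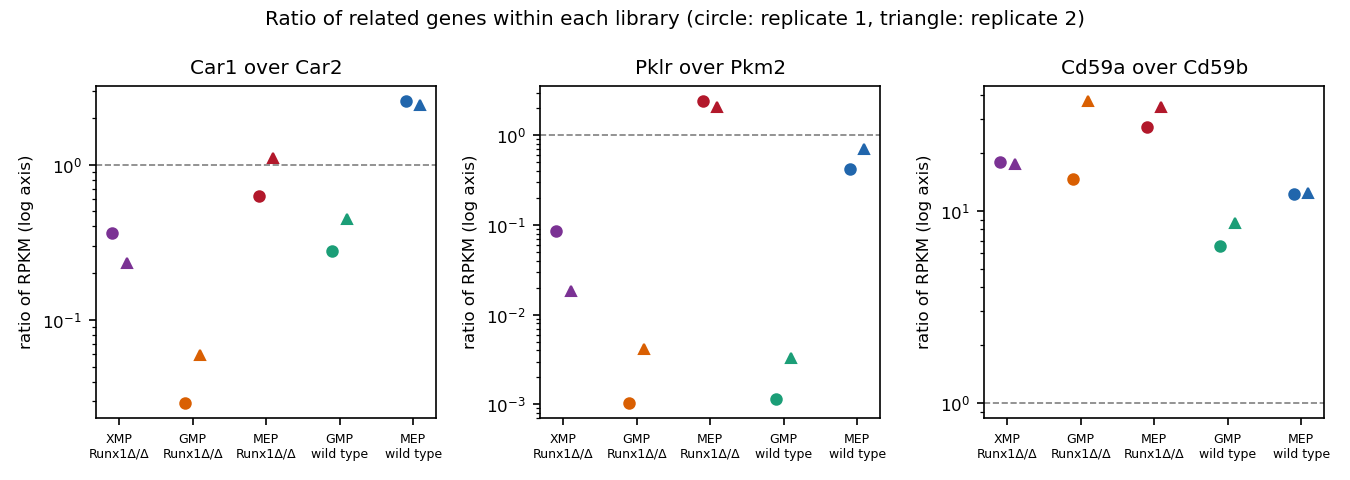
Ratio of RPKM values within each library for Car1 over Car2, Pklr over Pkm2 and Cd59a over Cd59b, on log axes with a dashed line at equal levels; circles are replicate 1 and triangles replicate 2. Car1 exceeds Car2 in both wild-type MEP libraries and in 1 Runx1-deleted MEP library, and Pklr exceeds Pkm2 in the Runx1-deleted MEP libraries alone.

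Pklr encodes the pyruvate kinase of red cells and liver, which carries out the last step of glycolysis. Its level was 3.97 and 0.721 RPKM in XMP, 0.136 and 0.557 in Runx1-deleted GMP, 53.5 and 36.8 in Runx1-deleted MEP, 0.161 and 0.291 in wild-type GMP, and 10 and 19.8 in wild-type MEP. MEP stood far above GMP, both Runx1-deleted MEP libraries exceeded both wild-type ones, and the GMP groups overlapped. In MEP the means were 45.1 ± 11.8 RPKM in Runx1-deleted and 14.9 ± 6.87 RPKM in wild-type libraries (SD, n = 2 each), a ratio of 3.03. The log2 difference of 1.58 ± 0.44 just missed the threshold (limma, adjusted p = 0.0533). It passed with quantile normalization (adjusted p = 0.0454), with the length trend removed (0.0431), without wild-type MEP replicate 2 (0.0181) and without either XMP library (limma, adjusted p = 0.0116 and 0.012). In GMP the difference was 0.12 ± 0.44 (limma, adjusted p = 0.888) on 17 to 72 reads per library.

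The other pyruvate kinase gene, Pkm2, which most cells use, ran the other way between the gates. It was at 46.4 and 39.3 RPKM in XMP, 132 and 135 in Runx1-deleted GMP, 22.2 and 17.7 in Runx1-deleted MEP, 142 and 87.6 in wild-type GMP, and 23.7 and 27.8 in wild-type MEP. Neither genotype comparison of Pkm2 was called, with 0.26 ± 0.23 in GMP and -0.35 ± 0.23 in MEP (limma, adjusted p = 0.514 and 0.39). Pklr over Pkm2 was 2.41 and 2.07 in Runx1-deleted MEP, against 0.424 and 0.712 in wild-type MEP. In XMP this ratio was 0.0855 and 0.0183, and in all 4 GMP libraries it was at most 0.00413.

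Of the other glycolytic genes 19 were tested. In MEP 1 rose and 1 fell, and in GMP 0 rose and 1 fell, which as shares of the 19 lie near those of all genes given above. Ldhb, a lactate dehydrogenase subunit, fell in MEP to 0.872 and 0.549 RPKM in Runx1-deleted libraries, against 5.56 and 4.47 in wild-type libraries (log2 -1.81 ± 0.22, limma, adjusted p = 0.000516). In GMP it fell to 9.23 and 12.8 RPKM in Runx1-deleted libraries, against 21.3 and 21.8 in wild-type libraries (log2 -0.92 ± 0.22, limma, adjusted p = 0.037). That call was lost in 9 of 19 alternatives, at most with an adjusted p of 0.355 without Runx1-deleted GMP replicate 1. Hk1, the hexokinase of red cells, rose in MEP to 233 and 203 RPKM in Runx1-deleted libraries, against 117 and 143 in wild-type libraries (log2 0.75 ± 0.19, limma, adjusted p = 0.034). It lost its call in 10 of 20 alternatives, among them without wild-type MEP replicate 1 (limma, adjusted p = 0.137) and without Runx1-deleted MEP replicate 1 (0.164).

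Tfrc encodes the receptor that brings transferrin-bound iron into the cell, which dividing cells of all lineages use and erythroid cells make in excess. Its level was 15.2 RPKM in both XMP libraries, 23.8 and 13.7 in Runx1-deleted GMP, 37.9 and 44.8 in Runx1-deleted MEP, 16.0 and 14.0 in wild-type GMP, and 7.68 and 20.6 in wild-type MEP. Runx1-deleted MEP stood above every other library, and the other 4 groups could not be ordered, since each overlapped its neighbour. The whole span of means was 2.93-fold, the smallest of the 6 genes.

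In MEP Tfrc rose by 1.63 ± 0.36 on the log2 scale (limma, adjusted p = 0.0198), with means of 41.4 ± 4.84 RPKM in Runx1-deleted and 14.1 ± 9.1 RPKM in wild-type libraries (SD, n = 2 each). The wild-type MEP libraries were far apart. The lower of them, replicate 1, was sequenced in lane 3 and long genes ran low in it, and Tfrc is a long transcript of 4914 bases. The cause of the gap between the wild-type MEP libraries was not tested. Without that library the difference was 0.97 and was not called (limma, adjusted p = 0.089), and with the length trend removed it was 1.43 and was called (adjusted p = 0.0104). The call was also lost without either Runx1-deleted MEP library (limma, adjusted p = 0.0624 and 0.131), with lanes 4 and 5 alone (0.131), with no filter (0.0905) and with only the MEP groups fitted (0.0815). In GMP the difference was 0.25 ± 0.36 (limma, adjusted p = 0.696), and it turned to -0.12 without Runx1-deleted GMP replicate 1.

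Of 18 genes of iron uptake and handling, 2 rose and 0 fell in MEP, where 3.97% and 4.03% of all genes did. By limma 0 of the 18 were called in GMP, where 0 were higher and 2 lower at an unadjusted p under 0.05. Of all genes tested 3.15% were called higher and 2.07% lower in GMP. In MEP the count of higher genes was 9 without wild-type MEP replicate 2, 6 with the length trend removed and 1 without Runx1-deleted MEP replicate 2. Slc40a1, the iron exporter ferroportin, rose in MEP to 27.2 and 33.2 RPKM in Runx1-deleted libraries, against 6.88 and 10.2 in wild-type libraries (log2 1.73 ± 0.23, limma, adjusted p = 0.000925), and kept its call in all 20 alternatives. In GMP it was at 2.85 and 2.12 RPKM in Runx1-deleted and 3.84 and 3.75 in wild-type libraries. The effects of Runx1 loss on Slc40a1 differed between GMP and MEP by -2.19 ± 0.33 (limma, adjusted p = 0.00786), a call that did not pass without replicate 2 of wild-type GMP (0.0524) or of Runx1-deleted GMP (0.0557). Slc11a2, which carries iron out of the endosome after Tfrc has brought it in, rose in MEP to 25.2 and 27.2 RPKM in Runx1-deleted libraries, against 12.4 and 15.0 in wild-type libraries (log2 0.89 ± 0.17, limma, adjusted p = 0.00903). It lost its call without Runx1-deleted MEP replicate 2 (limma, adjusted p = 0.0938) and with only the MEP groups fitted (0.107). Steap3, the endosomal iron reductase, was at 71.2 and 51.3 RPKM in Runx1-deleted and 40.6 and 42.1 in wild-type MEP and was not called (limma, adjusted p = 0.167).

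Cd24a encodes the small surface glycoprotein CD24, carried by erythroid cells and by immature granulocytes and B cells. It was at 56.2 and 48.5 RPKM in XMP, 86.2 and 73.0 in Runx1-deleted GMP, 257 and 227 in Runx1-deleted MEP, 116 and 155 in wild-type GMP, and 63.3 and 67.2 in wild-type MEP. No neighbours overlapped in the order XMP, wild-type MEP, Runx1-deleted GMP, wild-type GMP, Runx1-deleted MEP. Cd24a was the only one of the 6 genes called higher in wild-type GMP than in wild-type MEP. The mouse genome holds processed copies of this gene, and how the read counting treated them is not given, so its absolute level is uncertain.

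In GMP lane and genotype cannot be told apart, as given above. Between the genotypes Cd24a changed with opposite signs in the 2 gates, with the weaker call in GMP. In MEP it rose by 1.87 ± 0.19 on the log2 scale (limma, adjusted p = 0.000166), with means of 242 ± 20.8 RPKM in Runx1-deleted and 65.3 ± 2.73 RPKM in wild-type libraries (SD, n = 2 each), a ratio of 3.71. This call was kept in all 20 alternatives, with adjusted p between 0.000134 and 0.00703. In GMP it fell by 0.75 ± 0.19 (limma, adjusted p = 0.0472), with means of 79.6 ± 9.35 RPKM in Runx1-deleted and 136 ± 27.5 RPKM in wild-type libraries. The GMP call was lost in 13 of 19 alternatives, among them without wild-type GMP replicate 2 (adjusted p = 0.378), Runx1-deleted GMP replicate 1 (0.164) or Runx1-deleted GMP replicate 2 (limma, adjusted p = 0.327). The effect in GMP minus that in MEP was -2.63 ± 0.27 (limma, adjusted p = 0.000821) and was called in all 19 alternatives in which it could be fitted, with fold changes of -2.83 to -2.42. Of the 6 genes 0 were called higher and 1 lower in this test of the difference, where 0.954% and 0.789% of all genes were.

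Cd59a encodes the GPI-anchored inhibitor of the complement attack complex, which guards red cells against lysis. It was at 21.5 and 24.0 RPKM in XMP, 6.73 and 5.05 in Runx1-deleted GMP, 42.0 and 58.8 in Runx1-deleted MEP, 2.07 and 2.60 in wild-type GMP, and 17.2 and 12.7 in wild-type MEP. In both gates all Runx1-deleted libraries exceeded all wild-type ones, and XMP exceeded wild-type MEP. In MEP it rose by 1.68 ± 0.23 on the log2 scale (limma, adjusted p = 0.000971), with means of 50.4 ± 11.9 RPKM in Runx1-deleted and 14.9 ± 3.21 RPKM in wild-type libraries (SD, n = 2 each), and the call was kept in all 20 alternatives. In GMP it rose by 1.04 ± 0.23 (limma, adjusted p = 0.0221), with means of 5.89 ± 1.19 RPKM in Runx1-deleted and 2.33 ± 0.376 RPKM in wild-type libraries. The GMP call was lost in 6 of 19 alternatives, namely with any 1 of the 4 GMP libraries left out (limma, adjusted p = 0.0622 to 0.248), with no filter (0.0626) and with quantile normalization (0.0972). The effects in GMP and in MEP differed by -0.64 ± 0.32 (limma, adjusted p = 0.584).

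The closely related Cd59b was far lower and could share some reads with Cd59a. It was at 1.2 and 1.38 RPKM in XMP, 0.458 and 0.136 in Runx1-deleted GMP, 1.55 and 1.69 in Runx1-deleted MEP, 0.315 and 0.301 in wild-type GMP, and 1.42 and 1.02 in wild-type MEP. Neither genotype comparison of Cd59b was called (limma, adjusted p = 0.944 in GMP and 0.41 in MEP). Cd59a over Cd59b was 27.1 and 34.7 in Runx1-deleted MEP, against 12.2 and 12.4 in wild-type MEP. In GMP this ratio was 14.7 and 37.1 in Runx1-deleted and 6.56 and 8.63 in wild-type libraries. The Cd59b values in GMP rest on 20 and 5 reads in Runx1-deleted and 10 and 5 reads in wild-type libraries, so these ratios are uncertain.

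Of 16 other complement regulators and genes of GPI anchoring 13 were tested, and 1 rose and 0 fell in each genotype comparison. It was Cd55, the GPI-anchored decay-accelerating factor, both times. Among all genes tested 3.97% rose and 4.03% fell in MEP, and 3.15% rose and 2.07% fell in GMP. In MEP Cd55 was at 22.7 and 27.9 RPKM in Runx1-deleted and 13 and 13.4 in wild-type libraries (log2 0.88 ± 0.18, limma, adjusted p = 0.0141), a call lost without Runx1-deleted MEP replicate 2 (0.151) and with only the MEP groups fitted (0.115). In GMP it was at 3.98 and 5.0 RPKM in Runx1-deleted and 2.47 and 2.01 in wild-type libraries (log2 0.76 ± 0.18, limma, adjusted p = 0.0391). The GMP call was lost in 11 of 19 alternatives, among them without wild-type GMP replicate 2 (limma, adjusted p = 0.275), Runx1-deleted GMP replicate 1 (0.127) or Runx1-deleted GMP replicate 2 (0.317).

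**Figure D3:**
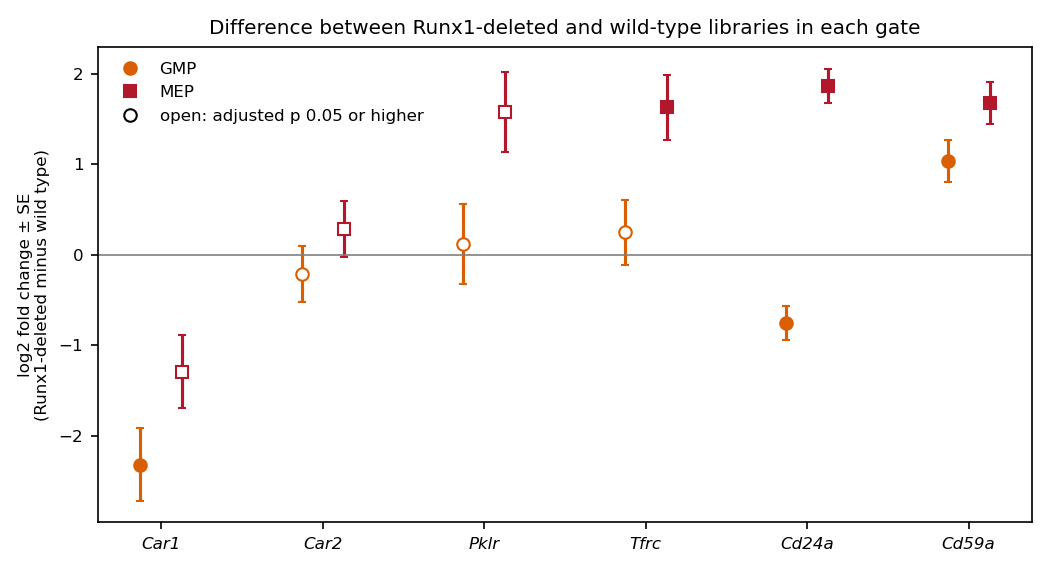
Log2 fold change of Runx1-deleted over wild-type libraries with its standard error, for each gene in GMP (circles) and MEP (squares); filled symbols have an adjusted p under 0.05. Cd24a is the gene with called changes on opposite sides of 0, and Car1 lies below 0 in both gates.

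A wider list of early erythroid genes was counted in the same way. Of 37 tested genes of CFU-E and early erythroid cells 13 rose and 0 fell in MEP, with a median fold change of 0.54. Among all genes tested 3.97% rose and 4.03% fell in MEP. Rhag, a membrane protein of the Rh complex, was at 32.5 and 28.2 RPKM in Runx1-deleted and 4.02 and 5.52 in wild-type MEP (log2 2.45 ± 0.21, limma, adjusted p = 7.21e-05). Cpox, an enzyme of haem synthesis, was at 128 and 97.8 RPKM in Runx1-deleted and 17.2 and 25.8 in wild-type MEP (log2 2.35 ± 0.23, limma, adjusted p = 0.000123). Cldn13, a claudin family gene, rose by 2.46 ± 0.35 and Epb4.2, which links the red-cell membrane to its skeleton, by 1.3 ± 0.13 (limma, adjusted p = 0.00138 and 0.000173). Rhag and Cpox kept their calls in all 20 alternatives, and Cldn13 and Epb4.2 in the 19 and 18 in which they were tested.

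Gata1 and Klf1, regulators of the lineage, were not called. Gata1 was at 127 and 120 RPKM in Runx1-deleted and 128 and 103 in wild-type MEP (log2 0.1 ± 0.22, limma, adjusted p = 0.804), and Klf1 at 153 and 112 RPKM in Runx1-deleted and 123 and 93.3 in wild-type MEP (log2 0.29 ± 0.26, adjusted p = 0.548). Epor, the erythropoietin receptor, rose by 0.64 ± 0.16 (limma, adjusted p = 0.0341) but lost its call in 11 of 20 alternatives. The count of 13 was 8 without wild-type MEP replicate 1, 6 without Runx1-deleted MEP replicate 1 and 5 with lanes 4 and 5 alone, and it was 17 with the length trend removed or without wild-type MEP replicate 2. The red-cell and globin marker list of 8 genes, which overlaps these 37 genes, summed to 392 and 338 RPKM in Runx1-deleted MEP and 144 and 132 in wild-type MEP. Its part in the MEP results was not tested.

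In GMP 4 of the 37 erythroid genes rose and 1 fell, with a median of 0.12, where 3.15% and 2.07% of all genes were called. Over 19 alternatives 1 to 7 were higher and 0 to 4 lower, and the median was -0.01 to 0.18. The lower count was 3 without either wild-type MEP library and 0 without Runx1-deleted GMP replicate 1. Samd14, an adaptor protein of erythroid progenitors, was at 7.44 and 8.57 RPKM in Runx1-deleted and 1.44 and 1.37 in wild-type GMP (log2 1.9 ± 0.16, limma, adjusted p = 4.61e-05). Slc4a1, the red-cell anion exchanger, was at 2.07 and 1.82 RPKM in Runx1-deleted and 0.0717 and 0.0527 in wild-type GMP (log2 1.47 ± 0.16, limma, adjusted p = 0.000283). Alas2, the erythroid enzyme that starts haem synthesis, was at 2.75 and 3.99 RPKM in Runx1-deleted and 0.304 and 0.509 in wild-type GMP (log2 1.62 ± 0.25, limma, adjusted p = 0.00261). Atp1b2, a sodium pump subunit, fell to 0.554 and 1.39 RPKM in Runx1-deleted libraries, against 6.61 and 4.3 in wild-type libraries (log2 -1.72 ± 0.28, limma, adjusted p = 0.00394), a call lost without Runx1-deleted GMP replicate 1 (0.0579). The red-cell and globin list, which holds Slc4a1 and Alas2, summed to 418 and 716 RPKM in Runx1-deleted and 56.0 and 94.6 in wild-type GMP. The neutrophil and monocyte list was lower in Runx1-deleted GMP, as given above, and the part of either list in the GMP results was not tested.

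**Figure D4:**
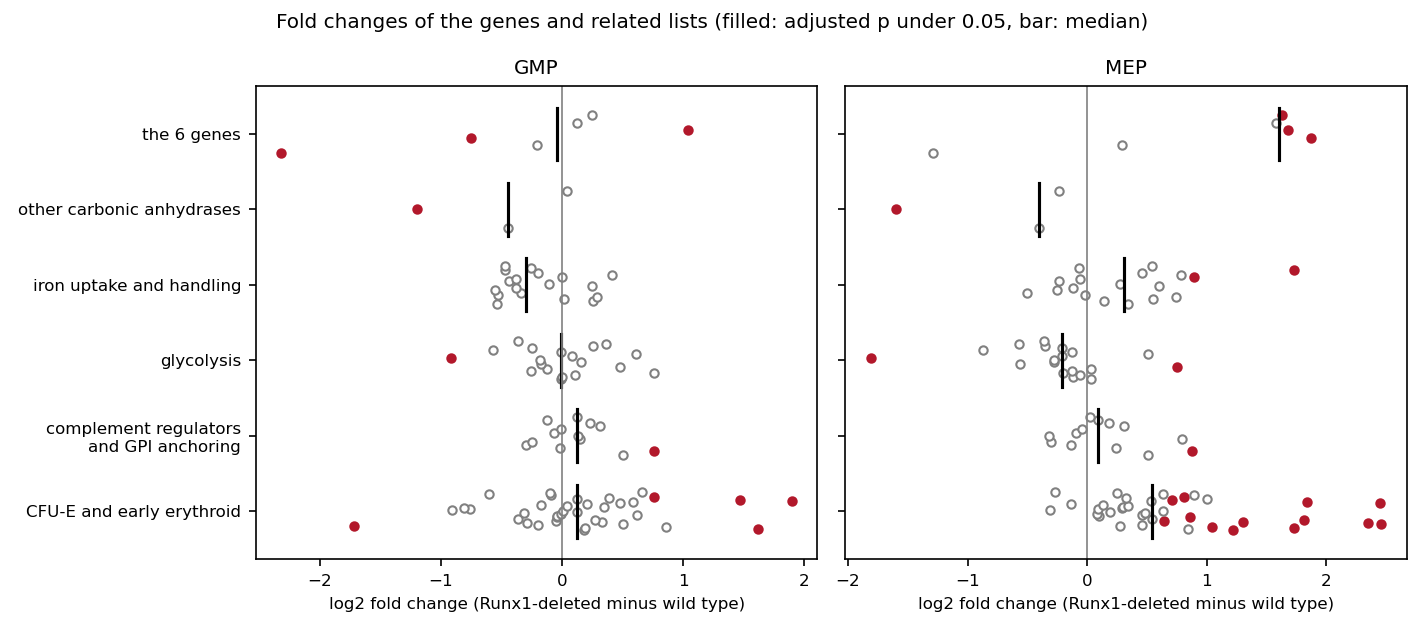
Log2 fold changes of Runx1-deleted over wild-type libraries in GMP and MEP for the 6 genes and the 5 related gene lists; each point is a gene, filled where its adjusted p is under 0.05, and bars are medians. In MEP the called erythroid genes all lie above 0, while in the list of other carbonic anhydrases the called gene lies below 0 in both panels.

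XMP, the gate positive for both CD16/32 and CD150, stood below Runx1-deleted MEP for every one of the 6 genes. All 6 were called lower and 0 higher, where 2.6% and 5.14% of all genes tested were, with a median fold change of -2.17. Pklr had a log2 fold change of -3.96 ± 0.44 and Car1 of -3.63 ± 0.40 (limma, adjusted p = 0.000579 and 0.00054). Cd24a had -2.19 ± 0.19 and Car2 -2.16 ± 0.31 (limma, adjusted p = 0.000151 and 0.00253). The smaller changes were those of Tfrc, -1.38 ± 0.36, and Cd59a, -1.09 ± 0.23 (limma, adjusted p = 0.0415 and 0.0144). Tfrc lost its call in 7 of 20 alternatives, among them without XMP replicate 1 (limma, adjusted p = 0.163), XMP replicate 2 (0.162), Runx1-deleted MEP replicate 1 (0.122) or Runx1-deleted MEP replicate 2 (0.177). Cd59a lost its call in 4 of 20, with no filter (0.0519) and without XMP replicate 1 (0.111), XMP replicate 2 (0.0654) or Runx1-deleted MEP replicate 2 (limma, adjusted p = 0.123).

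Against Runx1-deleted GMP, 3 of the 6 genes were called higher in XMP and 0 lower, where 9.75% and 9.9% of all genes were called higher and lower. Car1 rose by 3.84 ± 0.40, Car2 by 2.05 ± 0.31 and Cd59a by 1.8 ± 0.23 (limma, adjusted p = 3.45e-05, 0.000618 and 0.000155). Pklr, higher in both XMP libraries than in both Runx1-deleted GMP libraries, missed the threshold with 1.14 ± 0.44 (limma, adjusted p = 0.108). It passed without XMP replicate 2, at 1.9 (adjusted p = 0.00601), and with a pseudocount of 0.1, at 2.21 (limma, adjusted p = 0.0457). Cd24a, with -0.59 ± 0.19, was not called (limma, adjusted p = 0.052) and passed in 9 of 20 alternatives. Tfrc had -0.24 ± 0.36 (limma, adjusted p = 0.767).

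The XMP libraries differed from each other for Car1, Car2 and Pklr, all higher in replicate 1. The red-cell and globin list was also higher there, at 1600 RPKM in replicate 1 and 804 in replicate 2, and above the 338 to 716 of the other Runx1-deleted libraries. Its part in the XMP results was not tested. For Tfrc, Cd24a and Cd59a the XMP libraries were close to each other.

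In the wider erythroid list, 25 of 37 genes were called higher and 0 lower in XMP than in Runx1-deleted GMP, and 2 higher and 21 lower than in Runx1-deleted MEP. The 2 higher ones were Slc4a1 and Alas2, both of the red-cell and globin list. Gata1, a founding erythroid and megakaryocytic regulator, was at 123 and 105 RPKM in XMP and 7.94 and 11.0 in Runx1-deleted GMP (log2 3.47 ± 0.22, limma, adjusted p = 7.44e-07), beside 127 and 120 in Runx1-deleted MEP. Rhag was at 4.46 and 2.92 RPKM in XMP, against 32.5 and 28.2 in Runx1-deleted MEP (log2 -2.76 ± 0.21, limma, adjusted p = 9.53e-05). Of the iron genes 0 were higher and 4 lower in XMP than in Runx1-deleted MEP, led by Slc40a1 (log2 -2.24 ± 0.23) and Slc11a2 (log2 -1.1 ± 0.17; limma, adjusted p = 0.000357 and 0.00329). Of the glycolytic genes 3 were higher and 10 lower in XMP than in Runx1-deleted GMP, and 4 higher and 0 lower than in Runx1-deleted MEP. The last count was 0 higher and 0 lower without XMP replicate 1 or Runx1-deleted MEP replicate 2, and that of 10 was 6 without XMP replicate 2 or either Runx1-deleted GMP library. The 4 iron genes were 2 without XMP replicate 2, Runx1-deleted MEP replicate 1 or either Runx1-deleted GMP library, and 6 with the length trend removed. Among all genes tested 9.75% were higher and 9.9% lower in XMP than in Runx1-deleted GMP. Against Runx1-deleted MEP 5.14% were higher and 2.6% lower. Hk3, a hexokinase of myeloid cells, was at 2.5 and 2.05 RPKM in XMP and 122 and 139 in Runx1-deleted GMP (log2 -5.33 ± 0.21, limma, adjusted p = 8.19e-08).

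The comparison of the gates within a genotype shows how far each gene differed between GMP and MEP, a gate of both erythroid and megakaryocyte progenitors. In Runx1-deleted marrow all 6 genes were called lower and 0 higher in GMP than in MEP, where 10.4% and 14.1% of all genes tested were. In wild-type marrow 4 were lower and 1 higher, where 9.83% and 11.7% of all genes were. Car1 had the largest differences, -7.47 ± 0.40 in Runx1-deleted and -6.44 ± 0.40 in wild-type marrow (limma, adjusted p = 1.95e-07 and 6.07e-07). Pklr, Car2 and Cd59a followed in both genotypes, with -5.09 to -2.89 in Runx1-deleted and -3.72 to -2.25 in wild-type marrow.

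The other genes of the 6 are Tfrc and Cd24a. Tfrc had -1.15 ± 0.36 in Runx1-deleted marrow (limma, adjusted p = 0.0398; 6 of 20 alternatives lost this call, with 0.308 at most without Runx1-deleted GMP replicate 2), against 0.23 ± 0.36 in wild-type marrow (adjusted p = 0.737). The wild-type value turned to -0.43 without wild-type MEP replicate 1, and without replicate 2 it was 0.88 and passed (limma, adjusted p = 0.0415). The difference of these effects, -1.37 ± 0.51, was not called (limma, adjusted p = 0.314), and it passed without wild-type MEP replicate 2 (-2.03, adjusted p = 0.0188). Cd24a had -1.59 ± 0.19 in Runx1-deleted marrow and 1.03 ± 0.19 in wild-type marrow (limma, adjusted p = 7.88e-05 and 0.00221), which is the called difference of effects described above.

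Summed per length, the 6 genes held 0.069% and 0.0498% of the summed RPKM of the XMP libraries. They held 0.0355% and 0.0304% in Runx1-deleted GMP, 0.293% and 0.285% in Runx1-deleted MEP, 0.0363% and 0.0442% in wild-type GMP, and 0.256% and 0.334% in wild-type MEP. The MEP genotypes overlapped in this share. Car1 alone held 0.0781% and 0.0988% in Runx1-deleted MEP, against 0.171% and 0.215% in wild-type MEP, without overlap.

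As a description of likeness, each gene was set against the 7787 other genes with a mean of at least 5 RPKM, by the root mean square difference of centred log2(RPKM + 1) over the 10 libraries. The 3 nearest to Car2 were Blvrb (0.28), Tspan33 (0.38) and Rab4a (0.46), set against the own spread of Car2 of 1.8. Nearest to Pklr were Rhd (0.37), Sphk1 (0.46) and Ermap (0.53), with an own spread of 2.1. Nearest to Cd59a were St3gal5 (0.31), 2810432L12Rik (0.34) and Cyth3 (0.38), with an own spread of 1.38. Nearest to Car1 were Ces2g (1.02), Tspo2 (1.3) and Klf1 (1.32), with an own spread of 3.26. Tfrc was nearest to Trak2 (0.3), Klf3 (0.31) and Atp13a3 (0.32), and Cd24a to Sgpp1 (0.43), Stom (0.52) and Acaa2 (0.52), with own spreads of 0.67 and 0.8. Among the 6 genes Tfrc and Cd24a (0.57) and Car2 and Pklr (0.65) were the closest pairs, and Car1 was farthest from Tfrc and Cd24a (3.21 both). This measure is smaller for genes that vary little, and the 0.57 lies near the own spreads of Tfrc and Cd24a.

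The authors' deposited table also gives FDR-corrected p-values of Baggerley's test, a test of proportions. For Runx1-deleted against wild-type MEP the authors' deposited table gives 1.53e-70 for Car1, 0 for Cd24a, 0.0604 for Pklr, 0.0692 for Cd59a, 0.0907 for Tfrc and 1 for Car2. For Runx1-deleted against wild-type GMP the smallest value of the 6 genes in the authors' deposited table is 0.0683, for Car1. Cd24a has 0.916 in that comparison. For XMP against Runx1-deleted MEP the authors' deposited table gives 0.603 for Cd59a and at most 0.00152 for the other 5 genes. For XMP against Runx1-deleted GMP the authors' deposited table gives 0.438 for Car1, 0.0492 for Car2, 0.000272 for Cd59a and 0.0658 for Cd24a. Between the wild-type gates it gives 0.348 for Pklr, 0.0263 for Cd24a, 0.000979 for Cd59a and 0 for Car1 and Car2. The limma calls of Car1 in the former and Pklr in the latter comparison thus did not pass 0.05 in Baggerley's test.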

How the data were processed

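The authors deposited 1 table, which per the file headers holds RPKM values for 23240 genes in 10 libraries, with the p-values and FDR-corrected p-values of Baggerley's test between groups. Total RNA came from a peqGOLD TriFast extraction, and the library kit was TruSeq V2 LT or NEBNext Ultra, per the labels' protocols, which do not say which library had which. Reads were placed on build mm9, per the submitters' processing notes. The tools for alignment and counting are not named in the sources used here.

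Groups came from the sample labels, and lanes from the column headers. The 10905 genes that reached 1 RPKM in 2 or more libraries were tested with limma 3.58.1 (R 4.3.3) on log2(RPKM + 1), with eBayes and a trend. The fit took all 10 libraries together, 1 mean for each group, and left 5 residual degrees of freedom. The 7 comparisons give 42 tests of the 6 genes, and p-values were adjusted by Benjamini-Hochberg over all genes of a comparison. On simulated data of 10905 genes the fit called 60 of 100 genes changed 2-fold and 94 of 100 changed 4-fold in the MEP comparison. It also called 5 of the unchanged genes. The changed genes were drawn from those with a mean log2(RPKM + 1) above that of 5 RPKM, so genes at lower levels were not covered.

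Read totals and gene lengths were worked back from the RPKM values. All 12438 genes above 0 in every library came out as whole reads within 0.01 read, and the recovery was tested on simulated data (791 of 791 genes right). No count model was run on them. The correlation of the replicates was lowest in wild-type MEP, at 0.968, and highest in Runx1-deleted GMP, at 0.994.

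The 6 genes and all lists were chosen with earlier results of these data known. The lists were other carbonic anhydrases, iron uptake and handling, glycolysis, complement regulators and GPI anchoring, and CFU-E and early erythroid genes. Of the last 38 of 40, and of the iron genes 18 of 19, were in the table, and Tfr2 was not analysed here. Named list genes were, for each list and comparison, taken from the up to 4 called genes with the smallest adjusted p, with Cd59b and Pkm2 always and the 3 nearest profiles per gene. Gata1, Klf1, Steap3, Car13, Epor, Slc4a1 and Alas2 were in some comparisons named outside that rule, after their values were seen. Alternatives were a pseudocount of 0.1, a filter at a mean of 5 RPKM, no filter, quantile normalization, no trend, only the groups compared, a replicate block, a replicate block by library number set (the lower against the higher library numbers in the headers), lanes 4 and 5 alone, a removed length trend, and each library left out. Counts per list under them were added after seeing the data.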

Additional observations from a re-analysis of the deposited data

Results flagged for a closer look

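Cd24a was singled out because the effect of Runx1 loss differed between the gates. The effect in GMP minus the effect in MEP was -2.63 ± 0.27 on the log2 scale (limma, adjusted p = 0.000821), with the GMP effect at -0.75 and the MEP effect at 1.87. Both Runx1-deleted libraries were lower than both wild-type libraries in GMP and higher than both in MEP. The GMP fall only just passed the threshold (limma, adjusted p = 0.0472), and lane and genotype cannot be told apart in GMP. With 2 libraries a group, single libraries could not be screened as outliers.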

How the results depend on the processing

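Of the 42 results for the 6 genes 27 were called, 20 of them in every alternative, and 9 of the 15 not called were never called; 0 called results reversed. Car2, Pklr and Tfrc changed sign in some uncalled comparisons (6 results, among them Pklr in GMP at -0.02 with quantile normalization). Counts of all genes called moved more. With a mean of at least 5 RPKM they were 196 (Runx1 loss in GMP), 412 (Runx1 loss in MEP), 63 (difference of both effects), 1200 (XMP against Runx1-deleted GMP), 1380 (gates, wild type) and 1579 (gates, Runx1-deleted), against 569, 872, 190, 2143, 2352 and 2675. With only the groups compared they were 1925, 340 and 3216 for GMP, MEP and XMP against Runx1-deleted GMP. The difference of effects gave 80 with a pseudocount of 0.1 and 297 with the length trend removed. XMP against Runx1-deleted MEP (844) gave 1542 in lanes 4 and 5 alone and 1585 with the length trend removed. Leaving out single libraries gave 233 to 1729 in GMP, 361 to 3427 in MEP, 55 to 475 for the difference, 1381 to 2790 and 305 to 1462 for XMP against Runx1-deleted GMP and MEP, and 1636 to 3315 and 1770 to 3405 for the gates in wild-type and Runx1-deleted marrow. Quantile normalization moved the share of higher calls from 60.3% to 50% in GMP and from 66.4% to 54.3% for XMP against Runx1-deleted MEP. The causes were not tested.

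Replicate numbers do not pair the samples: deviations of same-numbered libraries correlated at -0.47 to 0.78 between groups. By library number set they correlated at -0.15 to 0.78, and at 0.3 to 0.78 in the 6 pairs without wild-type GMP. With a replicate block Cd24a in GMP was -0.75 and no longer called (limma, adjusted p = 0.052), and genes called were 552 in GMP and 844 in MEP. With a replicate block by library number set it was called (0.0376), with 708 and 1066 genes called. With 2 libraries a group, a difference of 2-fold could be missed.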
